A study of Homo sapiens with 12 samples.

Results

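The genes that copy the genome in S phase were followed in all 12 libraries of this RNA-seq series. They are 39 of the 26485 genes in the count table, chosen by name for their part in the G1/S transition and DNA replication. All 39 passed the filter on low counts, which left 17176 genes for testing, and the lowest count of any of the 39 in any library was 296.

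Before S phase, the origin recognition complex, CDC6 and CDT1 load a ring of MCM2 to MCM7 onto DNA. CDC45 and the GINS complex, helped by MCM10, turn this ring into the moving helicase, and primase, the replicative polymerases, the sliding clamp PCNA and its loader follow it. Transcription of most of these genes rises from G1 to S phase under E2F factors, which are held by RB until cyclin E and CDK2 release them. HEK293 cells carry the adenovirus E1A gene, whose product binds RB.

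Wild-type HEK293 cells, a human embryonic kidney line, were transfected with 1 µg of plasmid and collected after 48 hr. PEG10 is a gene derived from a retrotransposon, and its gag-pol form, its gag form or its nucleocapsid fragment (NC) was expressed. The control cells received LifeAct-Dendra2, an actin-binding peptide fused to a fluorescent protein, and all plasmids were designed with a CMV promoter. The sample titles give them as FL PEG10, RF1, NC PEG10 and, for the control, HA LifeAct Dendra2. Each of the 4 constructs had 3 libraries, numbered 1 to 3. Transfection was transient and the study describes no sorting of transfected cells before RNA was taken. In such bulk RNA, fewer cells in S phase and less RNA per cell cannot be told apart. The series' design states 3 passages of cells, and the replicate number was taken here as the passage, which the labels do not give for each library. Passage, harvest day and library preparation behind a replicate number cannot be told apart.

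Libraries held 30625725 to 45316749 counts. *PEG10* took 0.0230% to 0.0346% of the counts in control, 2.80% to 7.35% in gag-pol, 3.78% to 6.10% in gag and 0.238% to 0.389% in NC, so every PEG10 library stood above every control library. The 8 markers of HEK293 cells summed to 905 to 1266 CPM (counts scaled to the library total times its TMM factor) per library. Most of this came from *VIM* at 414 to 687 and *KRT8* at 260 to 312, while *PAX2* gave 13.8 to 23.7 and *LHX1* 4.61 to 10.4. The 11 markers of fibroblasts, blood, endothelium and liver summed to 18.2 to 55.3 CPM, of which *COL1A1* gave 15.9 to 42.9, while *DCN*, *PTPRC* and *HBB* had no count in 9, 10 and 11 libraries. The 39 replication genes together took 0.586% to 0.741% of the counts.

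Promoters are shown first for genes whose values are given in every library and whose promoter holds a short word that E2F binds. The genes shown were thus chosen by the word, and other genes described in detail held none. Of the 39 genes, 34 matched an entry in the RefSeq promoter table of GRCh38.p14. The 250 bases before the start were searched on both strands for the words TTTGGCGC, TTTCCCGC, TTTGCCGC and TTTCGCGC, which may overlap each other. A word was found for 14 of the 34 genes, or 41.2% (95% Wilson interval 26.4% to 57.8%, for counting error only), against 3.40% of all 27305 genes with a promoter entry and 5.26% of those tested here. Within 100 bases of the start a word was found for 32.4% of the members and 2.17% of the tested genes. With the words shortened by their first T to 7 letters, these shares over 250 bases were 58.8% and 20.1%, a smaller ratio. A match describes the letters and is not a site of binding. *MCM4*, *MCM5*, *GINS4*, *RPA2* and *CCNE2* had no entry. A gene with several entries counted if any of them held a word, and the entry with the most words is shown. Among the genes shown, *MCM7* and *UHRF1* had 3 entries and *PCNA* 2. The stretches run from 20 bases before the first word to 20 bases after the last, or to the last base before the start, 5′ to 3′ on the strand of the gene, with the words in capitals.
E2F1 (chr20:33686386-33686438, reverse strand): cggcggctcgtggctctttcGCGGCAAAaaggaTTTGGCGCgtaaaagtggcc
TYMS (chr18:657594-657641, forward strand): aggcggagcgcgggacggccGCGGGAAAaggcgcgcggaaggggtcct
PCNA (chr20:5126654-5126701, reverse strand): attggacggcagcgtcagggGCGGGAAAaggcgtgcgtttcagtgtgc
MCM3 (chr6:52284889-52284936, reverse strand): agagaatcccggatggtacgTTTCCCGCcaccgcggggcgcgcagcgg
MCM6 (chr2:135876502-135876615, reverse strand): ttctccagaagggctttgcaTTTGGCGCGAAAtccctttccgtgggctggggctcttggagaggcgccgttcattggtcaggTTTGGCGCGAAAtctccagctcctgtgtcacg
MCM7 (chr7:100101398-100101604, reverse strand): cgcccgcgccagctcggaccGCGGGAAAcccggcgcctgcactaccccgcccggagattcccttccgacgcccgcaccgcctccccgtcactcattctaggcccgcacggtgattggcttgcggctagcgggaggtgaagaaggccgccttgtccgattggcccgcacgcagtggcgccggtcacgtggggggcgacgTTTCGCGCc
POLE (chr12:132687343-132687380, reverse strand): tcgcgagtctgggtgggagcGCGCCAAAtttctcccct
UHRF1 (chr19:4909467-4909500, forward strand): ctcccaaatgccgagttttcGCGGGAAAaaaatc

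In *MCM6*, 2 copies of the same run of 12 letters each hold a word on both strands, and in *E2F1* 2 words lie close together before the start. The same searched words were also present for *CDT1*, *GINS2*, *RFC3*, *POLA1*, *POLA2* and *LIG1*. They were not found in this window for *TYMS*' partners in nucleotide supply *RRM1* and *RRM2*, for *CCNE1* or for *PRIM1*. Nor were they found for *MCM2*, *CDC6*, *GINS3*, *POLD1*, *POLE2*, *RPA1* or *FEN1*, whose values are also given in every library.

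Levels of the 39 genes in control cells spanned a wide range when divided by the length of the merged exons. Merged exons join every annotated exon of a gene, and transcripts may be shorter, so the order of genes depends on this length. *MCM7*, *CDT1* and *MCM3* led with 7294 ± 720, 5984 ± 531 and 4767 ± 336 normalized counts per kb (mean ± SD, n = 3 libraries), followed by *PCNA* at 3406 ± 247 and *POLD1* at 2978 ± 557. The first 3 did not overlap within 1 SD. At the other end, the ranges of mean ± SD of *POLE2* (160 ± 18.3), *GINS4* (143 ± 29.8) and *CCNE2* (139 ± 16.8) overlapped. Among the 6 subunits of the MCM ring, levels per kb ran from 1313 ± 261 for *MCM5* to that of *MCM7*, with *MCM6* at 1552 ± 248, *MCM4* at 2032 ± 240 and *MCM2* at 2657 ± 517. Before division by length the order differed. Control means were then 9543 for *MCM5* and 6418 for *MCM6*, and 20024 for *MCM4* and 12528 for *MCM2*.

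Few replication genes were called between the PEG10 constructs and many between passages. Adjusted p-values come from the edgeR quasi-likelihood fit, with the Benjamini-Hochberg method over all 17176 genes, and a gene is called at an adjusted p under 0.05. Changes printed as a value ± SE are log2 fold changes from this fit. Shares of all genes called are edgeR calls at this threshold. No such share is given here for unadjusted p-values or DESeq2 calls, so those counts have no background beside them. Against control, 4 of the 39 genes were higher in gag-pol and 2 lower (10.3% and 5.13%), where 5.48% of all genes tested were higher and 5.83% lower. In NC, 2 were higher and 2 lower (5.13% each), against a background of 6.04% higher and 5.15% lower. In gag, none of the 39 was called, where 0.699% of all genes were higher and 0.384% lower, with 11 of the 39 at an unadjusted p under 0.05 and 2 called by DESeq2. These 3 comparisons share the control libraries. Shares called in NC were thus near those of all genes, and the larger share of rises in gag-pol came from 4 genes. Median log2 fold changes of the 39 were -0.0026 in gag-pol, -0.0055 in gag and -0.05 in NC, where the median of all genes lay between -0.00135 and 0.00400.

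Between PEG10 constructs the calls were as few. Gag-pol stood above gag for 1 gene and below it for none, against 3.03% and 3.42% of all genes, with 9 of the 39 at an unadjusted p under 0.05 and 2 called by DESeq2. NC stood above gag for 2 and below it for 3, where 8.76% of all genes were higher and 8.12% lower. When both gag-pol and NC were set against the other pair, gag and control, 5 of the 39 were higher and 3 lower, beside 13.1% and 11.6% of all genes. In a joint test among the 4 constructs, 9 of the 39 differed (23.1%), beside 20.6% of all genes.

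The passages differed far more. Replicate 2 stood below replicate 1 for 19 of the 39 genes (48.7%) and above it for 1, while 14.7% of all genes were lower and 15.9% higher. Replicate 3 stood below replicate 1 for 24 genes (61.5%) and above it for 3, beside 21.0% lower and 20.6% higher. Between replicates 3 and 2, 7 of the 39 were lower and 5 higher (17.9% and 12.8%), beside 14.1% and 12.9% of all genes. A joint test among the 3 replicate numbers called 29 of the 39 (74.4%), where it called 52.8% of all genes. Median log2 fold changes of the 39 were -0.20, -0.26 and -0.04 in these 3 comparisons, beside -0.00438, -0.00680 and -0.00625 over all genes. Every one of these contrasts sets 4 libraries of one passage against 4 of another, so n is 1 replicate number on each side and the p-values measure the spread between libraries.

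**Figure D1:**
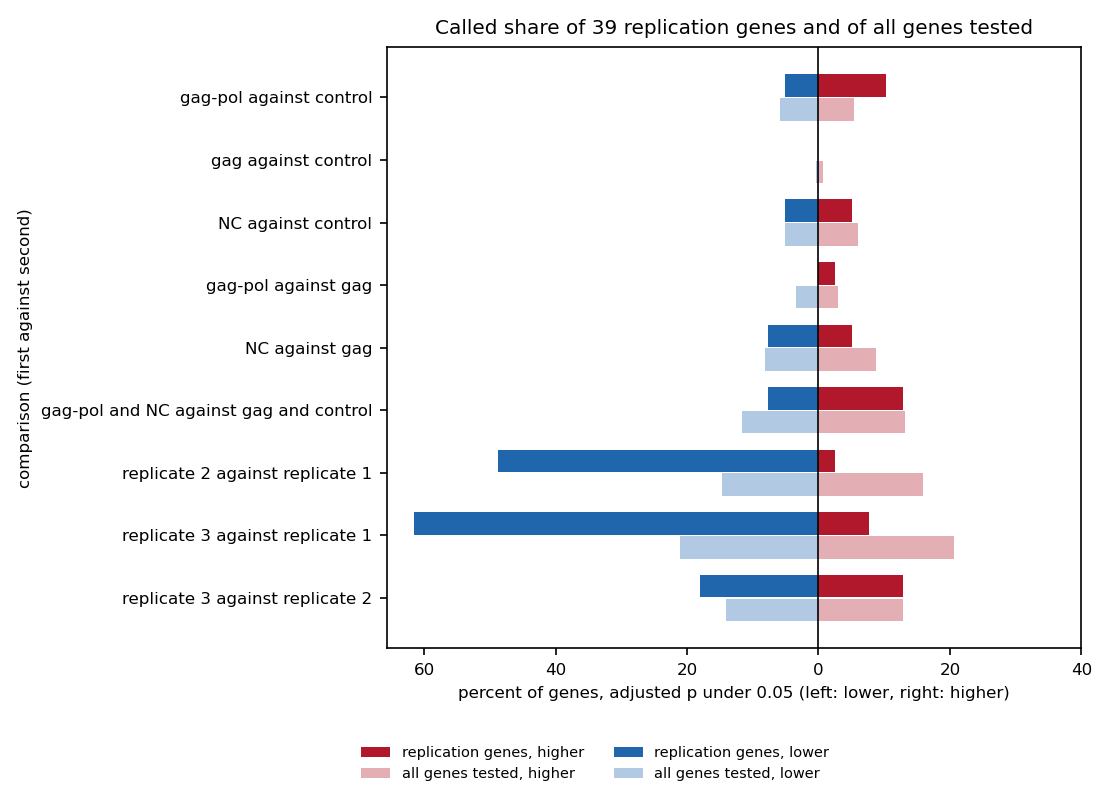
Share of the 39 replication genes (full color) and of all 17176 genes tested (pale) called lower (to the left) or higher (to the right) in each comparison, in percent on the x axis. In gag-pol against control 10.3% of the replication genes and 5.48% of all genes were higher, whereas 48.7% and 61.5% of the replication genes were lower in replicates 2 and 3 than in replicate 1.

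The calls between constructs rested on the replicate number in the model. Without the replicate block, 0 of the 39 were called in any construct comparison by edgeR, with 4 or fewer at an unadjusted p under 0.05 in each, and 3 or fewer of all genes were called in each. With 1 library or 1 replicate number left out in turn, the number called ran from 1 (without replicate 1) to 9 (without NC replicate 2) in gag-pol against control and from 1 (without control replicate 3) to 6 (without gag-pol replicate 3) in NC against control. Without the construct term, calls between replicate numbers were lost on *MCM4*, *MCM7*, *MCM10*, *GINS3*, *GINS4*, *RFC3* and *RPA2* (2 against 1), on *MCM10*, *GINS3*, *PRIM2*, *RRM1* and *TYMS* (3 against 1), and on *CDT1*, *MCM7*, *GINS1*, *POLD1*, *LIG1*, *RRM2*, *CCNE1* and *E2F1* (3 against 2). When libraries were left out in turn, the number called ran from 12 (without gag replicate 2) to 24 (without NC replicate 2) in replicate 2 against replicate 1 and from 22 (without gag replicate 1) to 28 (without NC replicate 1) in replicate 3 against replicate 1.

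The passage contrasts were repeated with each library's trend over GC content and transcript length removed, an alternative chosen after seeing the data. There, 16 of the 39 were lower and 0 higher in replicate 2 than in replicate 1, beside 15.1% and 15.3% of all genes, while *POLE*, the gene called higher otherwise, was not called. In replicate 3 against replicate 1, 18 were lower and 3 higher, beside 20.8% and 20.2%, and the median of the 39 was -0.15.

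The plot of log2 deviations by library shows the same library by library. Averaged over the 39 genes, the libraries of replicate 1 lay 0.06 to 0.19 above the gene means on the log2 scale, NC replicate 1 being the lowest of them. Replicates 2 and 3 lay from -0.15 to 0.00531, and NC replicate 2 was the highest of those 8. The passages did not overlap between replicate 1 and the others. Within a single construct, the median of the 39 from replicate 1 to replicate 2 was -0.17 in control, -0.28 in gag, -0.27 in gag-pol and -0.05 in NC, with 34, 32, 35 and 22 of the 39 lower. From replicate 1 to replicate 3 it was -0.23, -0.30, -0.21 and -0.19, with 30, 32, 33 and 31 lower. Against control, the NC libraries had a median of -0.08 in replicate 1, 0.06 in replicate 2 and -0.12 in replicate 3, so the sign turned in replicate 2.

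**Figure D2:**
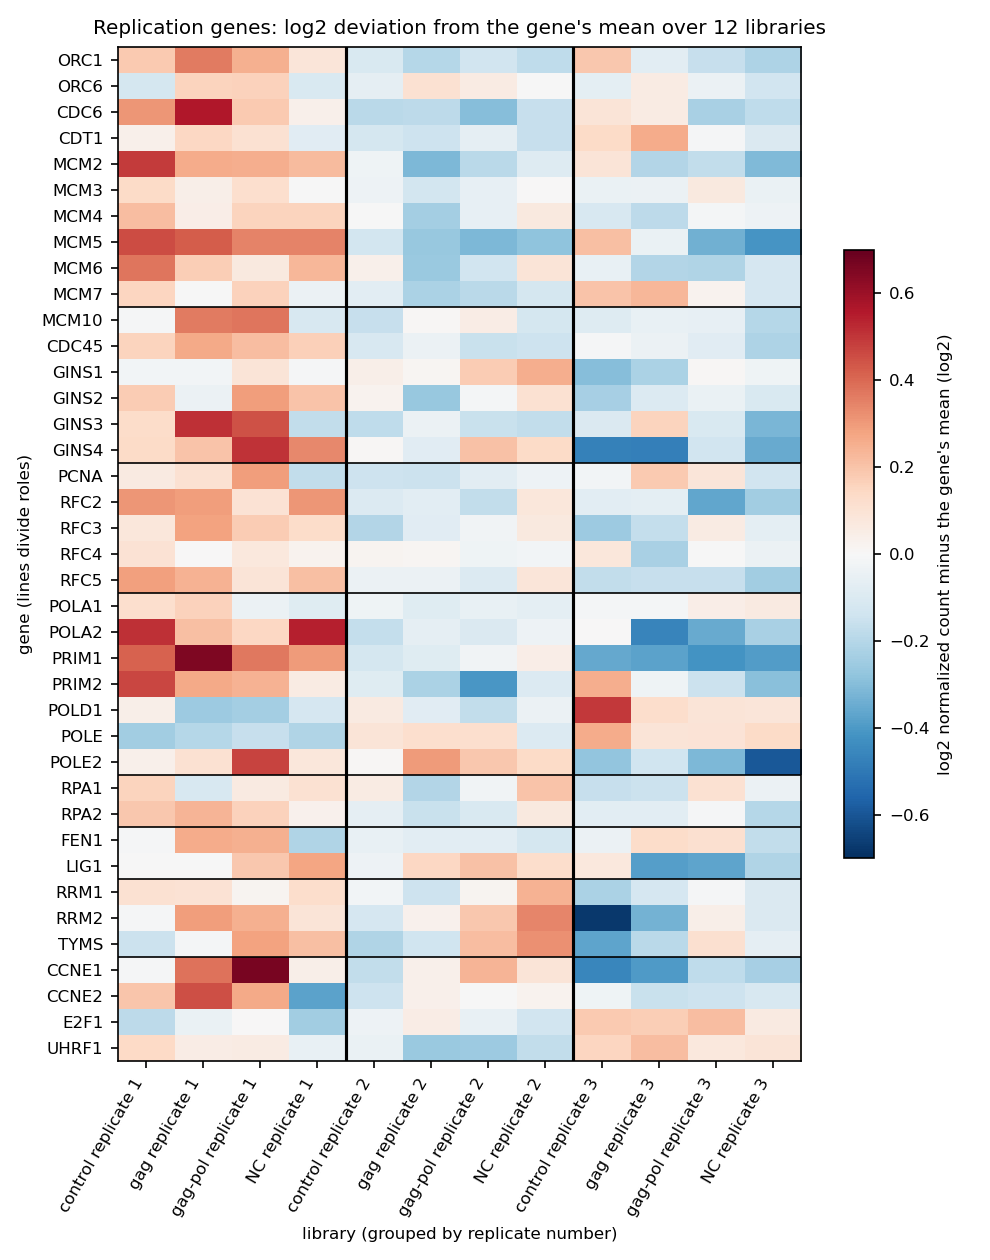
Heat map of the 39 replication genes (rows, divided by role) in the 12 libraries (columns, grouped by replicate number), where color gives the log2 normalized count minus the mean of that gene over all libraries. The 4 columns of replicate 1 are mostly red, with *POLD1*, *POLE* and *E2F1* among the exceptions, and *PRIM1* and *GINS4* are blue in all 4 columns of replicate 3.

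Licensing genes were the largest group, and 6 of them encode the MCM ring. Of the 10, 7 were lower in replicate 2 and 6 in replicate 3 than in replicate 1, none was higher in either, beside 14.7% and 21.0% lower and 15.9% and 20.6% higher over all genes. In replicate 3 against replicate 2, 2 were higher. With constructs, 1 of the 10 was called in gag-pol against control and 2 in NC against control, all lower, beside 5.83% and 5.15% of all genes lower, and none in gag, gag-pol against gag or NC against gag, with 4, 2 and 5 at an unadjusted p under 0.05 and 1, 0 and 3 called by DESeq2.

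*MCM5*, a subunit of the MCM ring at chr22:35400134-35425431 on the forward strand (ENSG00000100297.16) in GENCODE release 44 on GRCh38, gave the largest fall of replicate 2. *MCM5* stood at 11401, 7605 and 9623 normalized counts in control replicates 1 to 3, at 11167, 6933 and 8056 in gag, at 10573, 6686 and 6585 in gag-pol and at 10589, 6852 and 6243 in NC. The 4 libraries of replicate 1 were the highest, each above every library of replicates 2 and 3. Its log2 fold change was -0.64 ± 0.08 (SE, adjusted p = 2.18e-06) in replicate 2 and -0.54 ± 0.08 (SE, adjusted p = 6.90e-06) in replicate 3 against replicate 1, lower in 4 of 4 constructs both times, and both calls held with any library left out. Against control, within each passage the gag-pol and NC libraries were lower 3 of 3 times, with overlapping groups. The log2 fold change was -0.28 ± 0.09 (SE, adjusted p = 0.0354) in gag-pol, -0.29 ± 0.09 (SE, adjusted p = 0.0307) in NC, -0.14 ± 0.09 (SE, adjusted p = 0.491) in gag and -0.22 ± 0.06 (SE, adjusted p = 0.0123) for the pair of gag-pol and NC against the other constructs. In gag-pol the call on *MCM5* was lost when control replicate 2 or 3, gag replicate 1, gag-pol replicate 1, 2 or 3, or all of replicate 1, 2 or 3 was left out, with an adjusted p of up to 0.281, and also with only the compared libraries fitted. In NC the call was lost when control replicate 2 or 3, NC replicate 1 or 3, or all of replicate 1 or 3 was left out, with an adjusted p of up to 0.280. For the pairs of constructs the call on *MCM5* was lost when NC replicate 3, or all of replicate 3 was left out, with an adjusted p of up to 0.180.

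*MCM2*, the ring subunit that also binds histones, followed the same order of passages. *MCM2* stood at 15289, 10668 and 11626 normalized counts in control replicates 1 to 3, at 13028, 8778 and 9444 in gag, at 12985, 9582 and 9685 in gag-pol and at 12687, 10232 and 8794 in NC. Its 4 libraries of replicate 1 stood above the other 8. The log2 fold change was -0.46 ± 0.07 (SE, adjusted p = 2.34e-05) in replicate 2 and -0.45 ± 0.07 (SE, adjusted p = 1.11e-05) in replicate 3 against replicate 1. In NC it fell by 0.24 ± 0.08 against control (SE, adjusted p = 0.0416), lower in 3 of 3 passages with overlapping groups, while gag-pol and gag gave -0.22 ± 0.08 (SE, adjusted p = 0.0624) and -0.27 ± 0.08 (SE, adjusted p = 0.0854). The call on *MCM2* was lost when control replicate 1, 2 or 3, gag replicate 1, gag-pol replicate 1 or 2, NC replicate 1 or 3, or all of replicate 1 or 3 was left out, with an adjusted p of up to 0.286, and also with the GC and length trend removed.

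*MCM6* and *MCM4*, further subunits of the ring, were also highest in replicate 1. *MCM6* stood at 7586, 6006 and 5662 normalized counts in control replicates 1 to 3, at 6615, 4903 and 5085 in gag, at 6153, 5336 and 5059 in gag-pol and at 6890, 6240 and 5401 in NC. *MCM4* stood at 22631, 19429 and 18012 normalized counts in control replicates 1 to 3, at 20125, 16526 and 17126 in gag, at 21717, 18701 and 19302 in gag-pol and at 21724, 20381 and 18983 in NC. For *MCM6* the passages overlapped in replicate 2 and not in replicate 3, and for *MCM4* likewise. *MCM6* changed by -0.28 ± 0.06 (SE, adjusted p = 0.00225) and -0.36 ± 0.06 (SE, adjusted p = 0.000109) on the log2 scale in replicates 2 and 3 against replicate 1, and *MCM4* by -0.20 ± 0.06 (SE, adjusted p = 0.0194) and -0.23 ± 0.06 (SE, adjusted p = 0.00559). In replicate 2, the call on *MCM4* was lost when control replicate 1 or 2, gag replicate 1 or 2, or gag-pol replicate 1 or 2 was left out, with an adjusted p of up to 0.0959. Neither was called in a construct comparison, where *MCM6* gave -0.21 ± 0.07 (SE, adjusted p = 0.0643) in gag-pol and -0.21 ± 0.07 (SE, adjusted p = 0.172) in gag.

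*MCM7* and *MCM3* completed the ring. *MCM7* stood at 37626, 32112 and 38801 normalized counts in control replicates 1 to 3, at 33760, 29068 and 39805 in gag, at 37856, 29680 and 34418 in gag-pol and at 32846, 31061 and 31245 in NC. *MCM3* stood at 18786, 16756 and 16589 normalized counts in control replicates 1 to 3, at 17625, 15688 and 16646 in gag, at 18607, 16494 and 17995 in gag-pol and at 17083, 17179 and 16580 in NC. *MCM7* was low in replicate 2, with every library of replicate 2 below all libraries of replicate 1. It changed by -0.22 ± 0.07 (SE, adjusted p = 0.0297) in replicate 2 against replicate 1 and by 0.24 ± 0.07 (SE, adjusted p = 0.0200) in replicate 3 against replicate 2. The first call on *MCM7* was lost when control replicate 1 or 2, gag replicate 2, gag-pol replicate 1 or 2, or NC replicate 1 was left out, with an adjusted p of up to 0.172. The second call on *MCM7* was lost when control replicate 2, gag replicate 2 or 3, gag-pol replicate 2, or all of replicate 1 was left out, with an adjusted p of up to 0.127, and also with only the compared libraries fitted. *MCM3* was called in no comparison, with -0.12 ± 0.06 (SE, adjusted p = 0.143) in replicate 2 and -0.09 ± 0.06 (SE, adjusted p = 0.277) in replicate 3 against replicate 1, and its groups overlapped in both. Exons of *AP4M1* on the other strand overlap 392 bases of *MCM7*, so reads there cannot be assigned with the strand setting unknown.

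*CDC6*, which brings the ring to the origin, was highest in gag replicate 1. *CDC6* stood at 4678, 3311 and 4019 normalized counts in control replicates 1 to 3, at 5565, 3321 and 3931 in gag, at 4294, 3073 and 3227 in gag-pol and at 3866, 3381 and 3341 in NC. It fell in replicate 2 by 0.48 ± 0.08 (SE, adjusted p = 6.10e-05) and in replicate 3 by 0.34 ± 0.07 (adjusted p = 0.000911), and replicate 2 did not overlap replicate 1. Taken as a pair, gag-pol and NC stood below the other constructs, with a log2 fold change of -0.21 ± 0.06 (SE, adjusted p = 0.0135). The call on *CDC6* was lost when gag replicate 1, NC replicate 1, or all of replicate 1 or 3 was left out, with an adjusted p of up to 0.229.

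The other 3 licensing genes are described by their range over the 12 libraries. Normalized counts ran for *ORC1* from 1716 to 2562, for *ORC6* from 2762 to 3400 and for *CDT1* from 14593 to 19510. *ORC1*, the largest subunit of the origin recognition complex, changed by -0.38 ± 0.08 (SE, adjusted p = 0.00102) and -0.29 ± 0.08 (SE, adjusted p = 0.00555) in replicates 2 and 3 against replicate 1. In replicate 3, the call on *ORC1* was lost when gag replicate 1 was left out, with an adjusted p of up to 0.0503. *CDT1*, the partner of CDC6 in loading, was higher in replicate 3 than in replicate 2, by 0.19 ± 0.07 (SE, adjusted p = 0.0366), with overlapping groups. The call on *CDT1* was lost when control replicate 1, 2 or 3, gag replicate 1, 2 or 3, gag-pol replicate 1 or 2, NC replicate 1, or all of replicate 1 was left out, with an adjusted p of up to 0.209, and also with only the compared libraries fitted or the GC and length trend removed. *ORC6*, the smallest subunit of that complex, was called in no comparison, although every gag-pol and gag library stood above every control library, and gave 0.19 ± 0.08 (SE, adjusted p = 0.260) in gag and 0.14 ± 0.08 (SE, adjusted p = 0.228) in gag-pol against control.

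Of the 6 genes of helicase activation, 4 were lower in replicate 2 and 5 in replicate 3 than in replicate 1, and none was higher, beside 14.7% and 21.0% of all genes lower and 15.9% and 20.6% higher. *GINS4* and *GINS3*, both subunits of the GINS complex, gave the largest changes. *GINS4* stood at 908, 831 and 597 normalized counts in control replicates 1 to 3, at 949, 783 and 594 in gag, at 1175, 952 and 755 in gag-pol and at 1045, 907 and 647 in NC. The libraries of replicate 3 were the 4 lowest, below all of replicates 1 and 2. *GINS4* changed by -0.65 ± 0.09 (SE, adjusted p = 3.02e-06) in replicate 3 against replicate 1, by -0.42 ± 0.09 (SE, adjusted p = 0.000790) against replicate 2 and by -0.23 ± 0.08 (SE, adjusted p = 0.0429) in replicate 2 against replicate 1. The last call on *GINS4* was lost when control replicate 1 or 2, gag replicate 1 or 2, gag-pol replicate 1 or 2, or NC replicate 1 or 2 was left out, with an adjusted p of up to 0.148, and also with no filter or the GC and length trend removed. In gag-pol it stood above control by 0.30 ± 0.10 (SE, adjusted p = 0.0466), higher in 3 of 3 passages with overlapping groups, and the pair of gag-pol and NC against the other constructs gave 0.23 ± 0.07 (SE, adjusted p = 0.0180). In gag-pol the call on *GINS4* was lost when control replicate 1, 2 or 3, gag replicate 1, 2 or 3, gag-pol replicate 1, 2 or 3, NC replicate 1, or all of replicate 1, 2 or 3 was left out, with an adjusted p of up to 0.304, and also with upper-quartile factors, *PEG10* omitted, no filter, a minimum of 10 counts in all libraries, only the compared libraries fitted, libraries thinned to the smallest or the GC and length trend removed. The call for the pairs held with any single library left out and was lost without any whole replicate number, with an adjusted p of up to 0.143.

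*GINS3* separated NC from gag. *GINS3* stood at 2120, 1712 and 1807 normalized counts in control replicates 1 to 3, at 2754, 1880 and 2154 in gag, at 2639, 1740 and 1799 in gag-pol and at 1717, 1716 and 1553 in NC. Every NC library stood below every gag library, and gag replicate 1 was the highest of the 12. The log2 fold change of NC against gag was -0.42 ± 0.10 (SE, adjusted p = 0.00570), lower in 3 of 3 passages. The call on *GINS3* was lost when gag replicate 1, NC replicate 1, or all of replicate 1 was left out, with an adjusted p of up to 0.193. Replicates 2 and 3 changed by -0.37 ± 0.08 (SE, adjusted p = 0.00227) and -0.33 ± 0.08 (SE, adjusted p = 0.00343) against replicate 1, with overlapping groups.

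*GINS1*, *GINS2*, *CDC45* and *MCM10* make up the rest of the group. Normalized counts ran for *GINS1* from 2470 to 3620, for *GINS2* from 1370 to 2017, for *CDC45* from 2630 to 3684 and for *MCM10* from 3639 to 5417. *CDC45*, the part of the helicase that joins it at firing, changed in replicates 2 and 3 against replicate 1 by -0.31 ± 0.06 (SE, adjusted p = 0.000853) and -0.29 ± 0.06 (SE, adjusted p = 0.00100), without overlap in either. *MCM10*, which helps to activate the helicase, changed in the same contrasts by -0.21 ± 0.07 (SE, adjusted p = 0.0255) and -0.26 ± 0.07 (SE, adjusted p = 0.00559) on the log2 scale and in NC against gag by -0.25 ± 0.08 (SE, adjusted p = 0.0388), where every NC library lay below every gag library. In NC against gag, the call on *MCM10* was lost when control replicate 1 or 2, gag replicate 1, 2 or 3, NC replicate 1 or 3, or all of replicate 1 or 2 was left out, with an adjusted p of up to 0.550, and also with only the compared libraries fitted. In replicate 2 the call on *MCM10* was lost when control replicate 2, gag replicate 1 or 2, or gag-pol replicate 1 or 2 was left out, with an adjusted p of up to 0.161, and also with the GC and length trend removed. In replicate 3 the call on *MCM10* was lost when gag replicate 1 was left out, with an adjusted p of up to 0.0517, and also with the GC and length trend removed. *GINS2* changed by -0.28 ± 0.08 (SE, adjusted p = 0.00707) in replicate 3 against replicate 1. *GINS1* moved otherwise, with -0.26 ± 0.07 (SE, adjusted p = 0.00580) in replicate 3 against replicate 2 and 0.16 ± 0.05 (SE, adjusted p = 0.0299) for the pair of gag-pol and NC against the other constructs. The second call on *GINS1* was lost when control replicate 2 or 3, gag replicate 2 or 3, gag-pol replicate 1 or 3, NC replicate 2 or 3, or all of replicate 1, 2 or 3 was left out, with an adjusted p of up to 0.170.

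The clamp and its loader held no called construct change. None of the 5 genes was called by edgeR or DESeq2 in any of the 6 construct comparisons, with at most 2 at an unadjusted p under 0.05. Of all genes tested, edgeR called 31.9% in at least 1 of these 6 comparisons. *PCNA* stood at 5104, 4414 and 4819 normalized counts in control replicates 1 to 3, at 5258, 4396 and 5541 in gag, at 5974, 4641 and 5171 in gag-pol and at 4334, 4754 and 4448 in NC. *PCNA*, the ring that holds polymerases on DNA, had overlapping groups in every comparison with control, and its log2 fold change was 0.14 ± 0.09 (SE, adjusted p = 0.319) in gag-pol, -0.08 ± 0.09 (SE, adjusted p = 0.616) in NC and -0.17 ± 0.07 (SE, adjusted p = 0.0802) in replicate 2 against replicate 1. The loader subunits ran for *RFC2* from 2706 to 4324 normalized counts, for *RFC3* from 2894 to 4197, for *RFC4* from 1824 to 2292 and for *RFC5* from 2586 to 3735. In replicates 2 and 3 against replicate 1, *RFC2* changed by -0.32 ± 0.07 (SE, adjusted p = 0.00124) and -0.44 ± 0.07 (SE, adjusted p = 2.24e-05), *RFC5* by -0.23 ± 0.07 (SE, adjusted p = 0.0119) and -0.39 ± 0.07 (SE, adjusted p = 7.04e-05), and *RFC3* by -0.23 ± 0.07 (SE, adjusted p = 0.0145) and -0.27 ± 0.07 (SE, adjusted p = 0.00273). All 3 were without overlap in both contrasts, whereas *RFC4* gave -0.05 ± 0.07 (SE, adjusted p = 0.595) and -0.10 ± 0.07 (SE, adjusted p = 0.280). Every gag library of *RFC4* lay below every control library, at -0.14 ± 0.08 (SE, adjusted p = 0.487). In replicate 2 the call on *RFC3* was lost when control replicate 1 or 2, gag replicate 1 or 2, or gag-pol replicate 2 was left out, with an adjusted p of up to 0.114, and also with the GC and length trend removed. In replicate 3 the call on *RFC3* was lost with the GC and length trend removed (adjusted p = 0.232). In replicate 2 the call on *RFC5* was lost when control replicate 1 or 2, or gag replicate 1 or 2 was left out, with an adjusted p of up to 0.0687, and also with the GC and length trend removed.

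**Figure D3:**
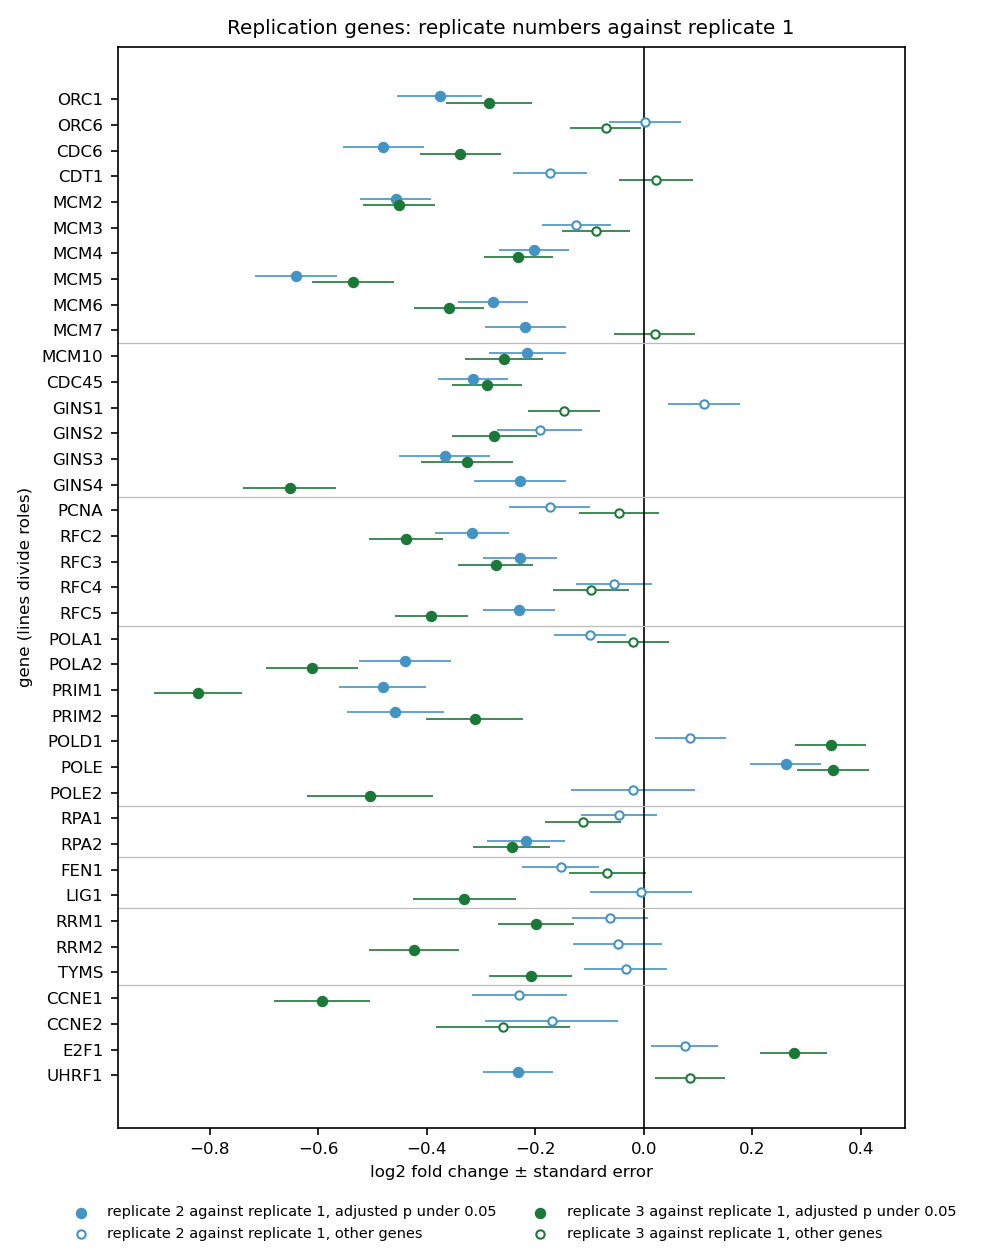
Log2 fold change (x axis, bars are ± 1 standard error of the fit) of each replication gene in replicate 2 (blue) and replicate 3 (green) against replicate 1, with filled points at an adjusted p under 0.05. Most points lie to the left of 0, *PRIM1* being the farthest at -0.82, while *POLE*, *POLD1* and *E2F1* lie to the right in replicate 3.

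Primase and the polymerases split in 2 directions between passages. *PRIM1*, the catalytic subunit of primase at chr12:56730438-56752374 on the reverse strand (ENSG00000198056.16), had the largest fall of all 39. In replicate 1, *PRIM1* stood at 1973, 2330, 1913 and 1819 normalized counts in control, gag, gag-pol and NC, against 1358, 1396, 1455 and 1531 in replicate 2 and 1157, 1140, 1108 and 1127 in replicate 3. The 3 passages did not overlap at all, and replicate 3 varied by an SD of 20.6 around a mean of 1133 (n = 4). Its log2 fold change was -0.82 ± 0.08 (SE, adjusted p = 8.41e-08) in replicate 3 and -0.48 ± 0.08 (SE, adjusted p = 0.000119) in replicate 2 against replicate 1, and -0.34 ± 0.08 (SE, adjusted p = 0.00315) between replicates 3 and 2. All 3 calls held with any library left out. With constructs it was not called, at -0.0026 ± 0.09 (SE, adjusted p = 0.991) in gag-pol, 0.01 ± 0.09 (SE, adjusted p = 0.967) in NC and 0.09 ± 0.09 (SE, adjusted p = 0.734) in gag. Exons of *NACA* on the same strand and *HSD17B6* on the other overlap 139 and 132 bases of *PRIM1*.

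*PRIM2*, the large subunit of primase, and *POLA2*, a subunit of polymerase alpha, went the same way. Normalized counts ran for *PRIM2* from 838 to 1536 and for *POLA2* from 1322 to 2655. *PRIM2* changed by -0.46 ± 0.09 (SE, adjusted p = 0.000571) and -0.31 ± 0.09 (SE, adjusted p = 0.00729) in replicates 2 and 3 against replicate 1, and its libraries overlapped in replicate 3 and not in replicate 2. Its call in replicate 3 was lost with the GC and length trend removed or without the construct term, with an adjusted p of up to 0.0680. *POLA2* changed by -0.44 ± 0.08 (SE, adjusted p = 0.000450) and -0.61 ± 0.08 (SE, adjusted p = 5.72e-06), without overlap in either. For the pair of gag-pol and NC against the other constructs, *PRIM2* gave -0.21 ± 0.07 (SE, adjusted p = 0.0390). This call on *PRIM2* was lost when control replicate 1 or 3, gag replicate 1, 2 or 3, gag-pol replicate 2 or 3, NC replicate 1 or 3, or all of replicate 1 or 3 was left out, with an adjusted p of up to 0.249. *POLA1*, the catalytic subunit of polymerase alpha, ran from 4024 to 4763 normalized counts and was called in no comparison.

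*POLD1* and *POLE*, the catalytic subunits of the lagging- and leading-strand polymerases, were lowest in replicate 1 of every construct. In replicate 1, *POLD1* stood at 13008, 10608, 10746 and 11664 normalized counts in control, gag, gag-pol and NC, against 13206, 11970, 11252 and 12320 in replicate 2 and 17865, 13805, 13499 and 13438 in replicate 3. In replicate 1, *POLE* stood at 12436, 12787, 13160 and 12705 normalized counts in control, gag, gag-pol and NC, against 15636, 15950, 15943 and 13770 in replicate 2 and 17564, 15672, 15714 and 16117 in replicate 3. *POLE* in replicate 1 lay below all 8 other libraries, and *POLD1* peaked in control replicate 3. *POLE* was higher by 0.26 ± 0.07 (SE, adjusted p = 0.00468) in replicate 2 and 0.35 ± 0.07 (SE, adjusted p = 0.000208) in replicate 3 against replicate 1, and *POLD1* by 0.34 ± 0.06 (SE, adjusted p = 0.000192) in replicate 3 against replicate 1 and 0.26 ± 0.06 (SE, adjusted p = 0.00463) against replicate 2. With the GC and length trend removed, *POLE* was not called in replicate 2 and kept its call in replicate 3. Against control, *POLD1* fell in gag-pol by 0.31 ± 0.07 on the log2 scale (adjusted p = 0.0105), lower in 3 of 3 passages with overlapping groups, and gave -0.27 ± 0.07 (SE, adjusted p = 0.0811) in gag and -0.22 ± 0.07 (SE, adjusted p = 0.0543) in NC. The gag-pol call on *POLD1* was lost when control replicate 3, gag-pol replicate 1, or all of replicate 1 was left out, with an adjusted p of up to 0.155.

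*POLE2*, the second subunit of polymerase epsilon, moved against its partner. In replicate 1, *POLE2* stood at 504, 530, 684 and 521 normalized counts in control, gag, gag-pol and NC, against 496, 605, 562 and 540 in replicate 2 and 407, 447, 396 and 326 in replicate 3. All libraries of replicate 3 stood below those of replicates 1 and 2. It changed by -0.51 ± 0.12 (SE, adjusted p = 0.00126) against replicate 1 and -0.49 ± 0.12 (SE, adjusted p = 0.00319) against replicate 2. Both calls held with any library left out.

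Single-strand binding and lagging-strand maturation, with 2 genes each, gave 1 call each between NC and gag, where 8.76% of all genes were higher and 8.12% lower. *RPA1* stood at 5377, 5016 and 4312 normalized counts in control replicates 1 to 3, at 4471, 4185 and 4354 in gag, at 5041, 4749 and 5197 in gag-pol and at 5196, 5536 and 4694 in NC. *RPA1*, the largest subunit of replication protein A, stood higher in every NC library than in any gag library, by 0.24 ± 0.08 (SE, adjusted p = 0.0415). The call on *RPA1* was lost when control replicate 2, gag replicate 1, 2 or 3, gag-pol replicate 1, NC replicate 1 or 2, or all of replicate 1 or 2 was left out, with an adjusted p of up to 0.334, and also with only the compared libraries fitted or no robust estimation. *FEN1* stood at 3975, 3857 and 3898 normalized counts in control replicates 1 to 3, at 4802, 3806 and 4383 in gag, at 4759, 3802 and 4324 in gag-pol and at 3465, 3681 and 3559 in NC. *FEN1*, the nuclease that trims Okazaki fragments, stood lower in every NC library than in any gag or control library. In NC against control *FEN1* gave -0.13 and was not called, with its unadjusted p not under 0.05. NC differed from gag by -0.27 ± 0.08 (SE, adjusted p = 0.0261). The call on *FEN1* was lost when gag replicate 1 or 3, NC replicate 1 or 3, or all of replicate 1 or 3 was left out, with an adjusted p of up to 0.451, and also with only the compared libraries fitted. Between passages neither was called. *RPA2*, the next subunit, ran from 3037 to 4118 normalized counts and changed by -0.22 ± 0.07 (SE, adjusted p = 0.0250) and -0.24 ± 0.07 (SE, adjusted p = 0.00855) in replicates 2 and 3 against replicate 1. In replicate 2 the call on *RPA2* was lost when control replicate 1 or 2, gag replicate 1 or 2, or gag-pol replicate 1 or 2 was left out, with an adjusted p of up to 0.142, and also with the GC and length trend removed. In replicate 3 the call on *RPA2* was lost when gag replicate 1 was left out, with an adjusted p of up to 0.0630, and also with the GC and length trend removed. *LIG1*, which seals the fragments, ran from 3120 to 4940 and fell in replicate 3 against replicate 1 by 0.33 ± 0.09 (adjusted p = 0.00953), in 3 of 4 constructs and not in control, and against replicate 2 by 0.33 ± 0.09 (adjusted p = 0.0163). The second call on *LIG1* was lost when gag replicate 2 or 3, or gag-pol replicate 2 or 3 was left out, with an adjusted p of up to 0.0786.

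In nucleotide supply, 2 of the 3 genes were called higher in gag-pol and in NC against control, beside 5.48% and 6.04% of all genes. *TYMS* encodes thymidylate synthase, which makes dTMP, and lies at chr18:657653-673578 on the forward strand (ENSG00000176890.16). *TYMS* stood at 1220, 1172 and 1048 normalized counts in control replicates 1 to 3, at 1343, 1230 and 1191 in gag, at 1648, 1577 and 1464 in gag-pol and at 1572, 1690 and 1297 in NC. Every gag-pol and every NC library stood above every control library, and gag-pol also above every gag library. The means were 1147 ± 88.5 in control, 1255 ± 79.2 in gag, 1563 ± 92.6 in gag-pol and 1520 ± 202 in NC (SD, n = 3). The log2 fold change against control was 0.45 ± 0.09 (SE, adjusted p = 0.00286) in gag-pol, 0.40 ± 0.09 (SE, adjusted p = 0.00686) in NC and 0.13 ± 0.09 (SE, adjusted p = 0.563) in gag. Against gag it was 0.32 ± 0.09 (SE, adjusted p = 0.0328) in gag-pol and 0.27 ± 0.09 (SE, adjusted p = 0.0371) in NC. For the pair of gag-pol and NC against the other constructs it reached 0.36 ± 0.06 (SE, adjusted p = 0.000374), higher in 3 of 3 passages, and this call held with any library or replicate number left out.

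The single comparisons of *TYMS* were less firm. In gag-pol against control the call on *TYMS* was lost when all of replicate 1 was left out, with an adjusted p of up to 0.0515. In NC against control it was lost without replicate 1 or replicate 2, with an adjusted p of up to 0.0805. In gag-pol against gag, the call on *TYMS* was lost when gag replicate 1, 2 or 3, gag-pol replicate 1, 2 or 3, or all of replicate 1, 2 or 3 was left out, with an adjusted p of up to 0.223. In NC against gag, the call on *TYMS* was lost when gag replicate 1, 2 or 3, NC replicate 1 or 2, or all of replicate 1 or 2 was left out, with an adjusted p of up to 0.363, and also with only the compared libraries fitted. Exons of *ENOSF1*, transcribed from the other strand, overlap 967 bases or 39.9% of the merged exons of *TYMS*, and those of *TYMSOS* a further 193. *ENOSF1* itself gave -0.04 ± 0.11 (SE, adjusted p = 0.861) in gag-pol, 0.02 ± 0.11 (SE, adjusted p = 0.935) in NC and -0.03 ± 0.08 (SE, adjusted p = 0.813) for the pairs. *TYMSOS*, at a mean of 74.4 normalized counts in control, gave 0.32 ± 0.26 (SE, adjusted p = 0.450) in gag-pol, 0.58 ± 0.26 (SE, adjusted p = 0.147) in NC, 0.81 ± 0.26 (SE, adjusted p = 0.0359) in NC against gag and 0.57 ± 0.18 (SE, adjusted p = 0.0274) for the pairs, and was higher than control in 3 of 3 passages in both gag-pol and NC. With the strand setting unknown, reads of *TYMS* and *TYMSOS* in the shared bases cannot be told apart. Between passages, *TYMS* changed by -0.21 ± 0.08 (SE, adjusted p = 0.0324) in replicate 3 against replicate 1, where *ENOSF1* changed by -0.42 ± 0.10 (SE, adjusted p = 0.00178).

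*RRM2*, the small subunit of ribonucleotide reductase, was higher than control in the same constructs, and neither was called against gag. *RRM2* stood at 4592, 4248 and 2890 normalized counts in control replicates 1 to 3, at 5661, 4708 and 3668 in gag, at 5474, 5266 and 4739 in gag-pol and at 4914, 5845 and 4302 in NC. In replicate 1, gag stood above gag-pol and NC. Gag-pol did not overlap control, and NC and gag did. The log2 fold change was 0.42 ± 0.09 (SE, adjusted p = 0.00653) in gag-pol, 0.38 ± 0.09 (SE, adjusted p = 0.0143) in NC, 0.26 ± 0.09 (SE, adjusted p = 0.198) in gag and 0.27 ± 0.07 (SE, adjusted p = 0.00582) for the pairs. In gag-pol the call on *RRM2* was lost when control replicate 3, gag-pol replicate 3, or all of replicate 3 was left out, with an adjusted p of up to 0.130. In NC the call on *RRM2* was lost when control replicate 3, NC replicate 2 or 3, or all of replicate 2 or 3 was left out, with an adjusted p of up to 0.124. For the pairs it was lost without replicate 3, with an adjusted p of 0.124. Control replicate 3 was the lowest library, and replicate 3 as a whole changed by -0.42 ± 0.08 (SE, adjusted p = 0.000290) against replicate 1 and -0.37 ± 0.08 (SE, adjusted p = 0.00172) against replicate 2.

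*RRM1*, the large subunit of the same enzyme, ran from 4931 to 6816 normalized counts and was called in no construct comparison. It gave 0.06 ± 0.08 (SE, adjusted p = 0.710) in gag-pol and 0.14 ± 0.08 (SE, adjusted p = 0.293) in NC, and -0.20 ± 0.07 (SE, adjusted p = 0.0264) in replicate 3 against replicate 1. The last call on *RRM1* was lost when control replicate 1 or 3, gag replicate 1, or NC replicate 3 was left out, with an adjusted p of up to 0.128, and also with the GC and length trend removed. The call on *TYMS* in the same contrast was lost when control replicate 1, gag replicate 1, gag-pol replicate 1, or NC replicate 1 or 3 was left out, with an adjusted p of up to 0.111, and also with the GC and length trend removed. Differences between *RRM1* and *RRM2* were not tested.

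**Figure D4:**
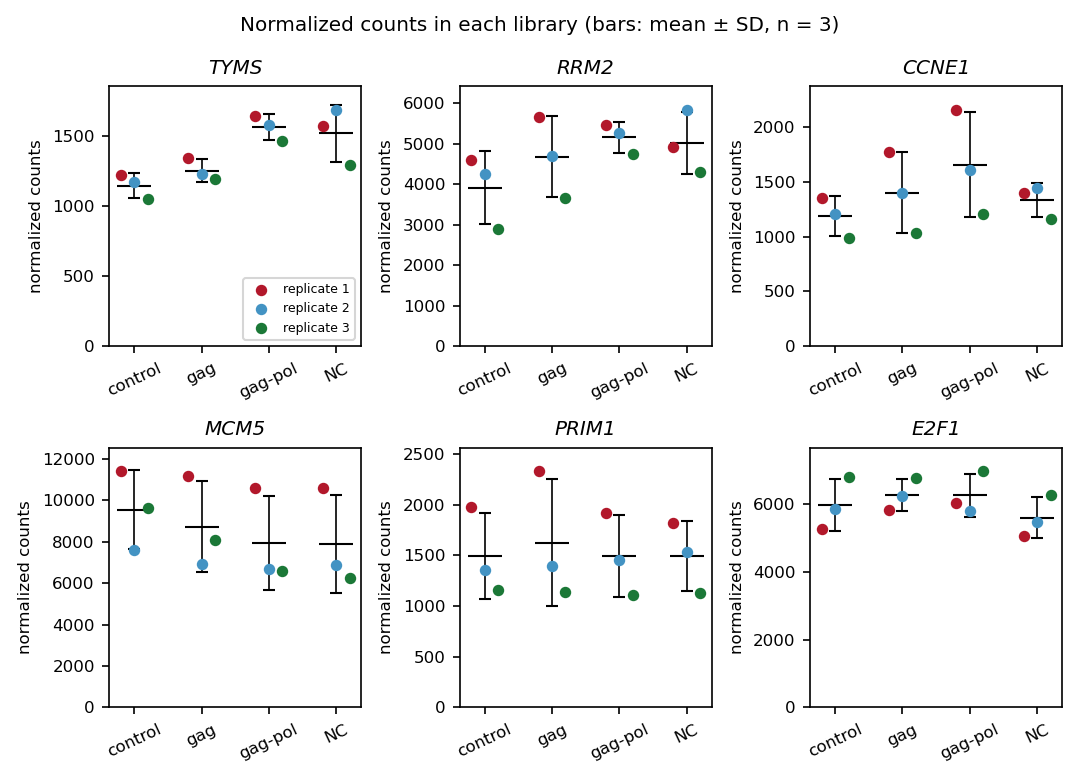
Normalized counts of 6 replication genes in each library (y axis from 0), by construct, with points colored by replicate number and bars for the mean ± SD of 3 libraries. *TYMS* in gag-pol and NC lies above all control points, while *MCM5* and *PRIM1* are highest in replicate 1 and *E2F1* is highest in replicate 3 of every construct.

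Among the regulators of the G1/S transition, *CCNE1* moved with both constructs and passages. It encodes cyclin E1, the partner of CDK2, and lies at chr19:29811991-29824312 on the forward strand (ENSG00000105173.14). *CCNE1* stood at 1356, 1209 and 992 normalized counts in control replicates 1 to 3, at 1776, 1396 and 1034 in gag, at 2163, 1608 and 1204 in gag-pol and at 1401, 1448 and 1158 in NC. Within each passage gag-pol stood above control, but the groups overlapped. The log2 fold change was 0.46 ± 0.10 (SE, adjusted p = 0.00574) in gag-pol, 0.22 ± 0.10 (SE, adjusted p = 0.337) in gag and 0.18 ± 0.10 (SE, adjusted p = 0.260) in NC. In gag-pol the call on *CCNE1* was lost when gag-pol replicate 1, or all of replicate 1 was left out, with an adjusted p of up to 0.119. For the pair of gag-pol and NC against the other constructs it was 0.21 ± 0.07 (SE, adjusted p = 0.0357). This call on *CCNE1* was lost when control replicate 1 or 2, gag replicate 2 or 3, gag-pol replicate 1, NC replicate 2 or 3, or all of replicate 1, 2 or 3 was left out, with an adjusted p of up to 0.150. Replicate 3 was lowest in every construct, at -0.59 ± 0.09 (SE, adjusted p = 1.53e-05) against replicate 1 and -0.36 ± 0.09 (SE, adjusted p = 0.00381) against replicate 2, without overlap in either.

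*CCNE2*, encoding the second cyclin E, was called in no comparison. *CCNE2* stood at 691, 547 and 591 normalized counts in control replicates 1 to 3, at 828, 619 and 542 in gag, at 727, 603 and 548 in gag-pol and at 467, 614 and 559 in NC. Its highest library was gag replicate 1 and its lowest NC replicate 1, and it gave -0.14 ± 0.14 (SE, adjusted p = 0.561) in NC against control and -0.26 ± 0.12 (SE, adjusted p = 0.0942) in replicate 3 against replicate 1. Exons of *INTS8* on the other strand overlap 1629 bases or 37.0% of its merged exons.

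*E2F1*, an activator of S-phase genes, ran against most of them between passages. In replicate 1, *E2F1* stood at 5272, 5813, 6015 and 5056 normalized counts in control, gag, gag-pol and NC, against 5844, 6223, 5781 and 5465 in replicate 2 and 6806, 6758, 6968 and 6259 in replicate 3. All 4 libraries of replicate 3 stood above those of replicates 1 and 2. It was higher by 0.28 ± 0.06 (SE, adjusted p = 0.000981) against replicate 1 and 0.20 ± 0.06 (SE, adjusted p = 0.0176) against replicate 2. The second call on *E2F1* was lost when control replicate 2, gag-pol replicate 2, NC replicate 3, or all of replicate 1 was left out, with an adjusted p of up to 0.0979, and also with only the compared libraries fitted or the GC and length trend removed. With constructs it gave 0.07 ± 0.07 (SE, adjusted p = 0.566) in gag-pol, 0.07 ± 0.07 (SE, adjusted p = 0.716) in gag and -0.09 ± 0.07 (SE, adjusted p = 0.427) in NC.

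*UHRF1*, which carries DNA methylation through replication, was lowest in replicate 2. In replicate 1, *UHRF1* stood at 15044, 14145, 14195 and 13189 normalized counts in control, gag, gag-pol and NC, against 13239, 11415, 11433 and 12118 in replicate 2 and 15166, 15868, 14373 and 14557 in replicate 3. Replicate 2 lay below all libraries of replicate 3 and overlapped replicate 1. It changed by -0.23 ± 0.06 (SE, adjusted p = 0.00908) in replicate 2 against replicate 1 and by 0.32 ± 0.06 (SE, adjusted p = 0.000889) in replicate 3 against replicate 2. The first call on *UHRF1* was lost when gag replicate 2, or gag-pol replicate 1 was left out, with an adjusted p of up to 0.0654. No construct comparison called it.

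**Figure D5:**
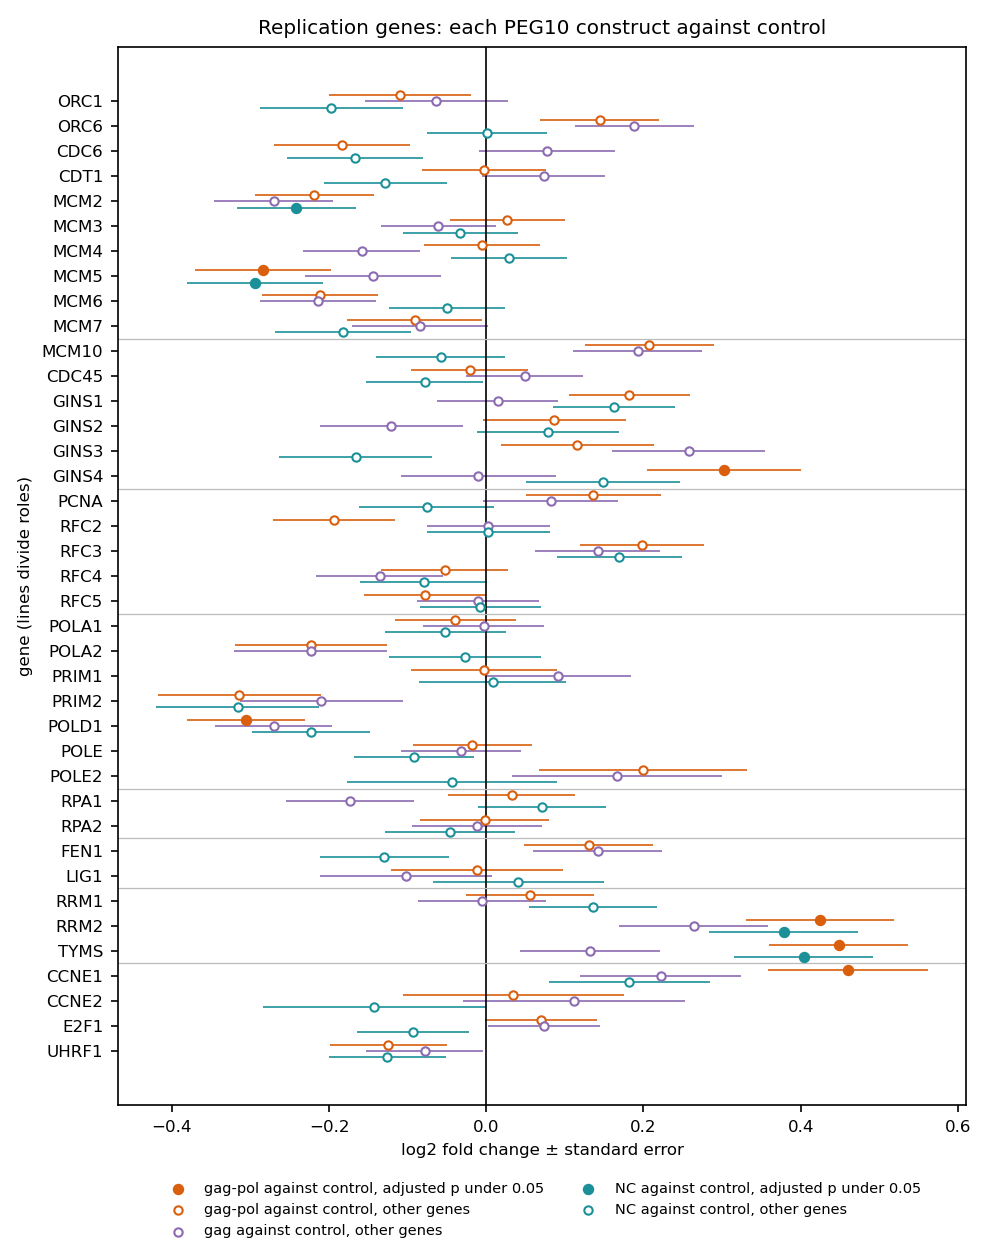
Log2 fold change (x axis, bars are ± 1 standard error of the fit) of each replication gene in gag-pol (orange), gag (purple) and NC (teal) against the same control libraries, with filled points at an adjusted p under 0.05. The 6 filled points of gag-pol and 4 of NC include *TYMS* and *RRM2* on the right and *MCM5* on the left, and gag has none.

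Counted over all comparisons, 31 of the 39 genes were called in at least 1 passage contrast and 14 in at least 1 construct contrast, 12 of them in both. These are 79.5% and 35.9% of the members, beside 57.2% and 31.9% of all genes tested. *ORC6*, *MCM3*, *PCNA*, *RFC4*, *POLA1* and *CCNE2* were called in neither. Lower in both replicates 2 and 3 than in replicate 1 were 17 genes, namely *ORC1*, *CDC6*, *MCM2*, *MCM4*, *MCM5*, *MCM6*, *MCM10*, *CDC45*, *GINS3*, *GINS4*, *RFC2*, *RFC3*, *RFC5*, *POLA2*, *PRIM1*, *PRIM2* and *RPA2*. These 17 are 43.6% of the members, beside 8.50% of all genes, and the 2 contrasts share replicate 1. Of the 14 genes with an E2F word in the promoter, 6 were lower and 2 higher in replicate 3 than in replicate 1, with a median of -0.07. Of the 20 without one, 14 were lower and 1 higher, with a median of -0.30. Of all genes, 21.0% were lower and 20.6% higher. In replicate 2 against replicate 1, 5 of the 14 were lower and 1 higher, and 10 of the 20 were lower and 0 higher. All genes gave 14.7% lower and 15.9% higher. The medians there were -0.17 and -0.22, and the difference between the sets was not tested.

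Other genes of the pathway were read from 3 further lists. Whether their calls held with libraries left out is not given here. Of 27 other replication genes, 5 were higher and 1 lower in gag-pol against control, beside 5.48% and 5.83% of all genes, and 3 higher and 1 lower in NC, beside 6.04% and 5.15%. None was called in gag, with 3 at an unadjusted p under 0.05 and 2 called by DESeq2. *DBF4*, which activates the kinase CDC7, gave 0.39 ± 0.10 (SE, adjusted p = 0.0128) in gag-pol, and *POLD2*, a subunit of polymerase delta, gave 0.36 ± 0.07 (SE, adjusted p = 0.00322) in NC. Gag-pol stood above gag for 1 of the 27 and NC for 4, with none lower, where 3.03% and 8.76% of all genes were higher, and the pairs gave 4 higher and 1 lower, where 13.1% and 11.6% of all genes were. *TOP2A*, a topoisomerase, gave 0.29 ± 0.06 (SE, adjusted p = 0.000958) for the pairs. Between passages, 8 of the 27 were lower and 3 higher in replicate 2, and 13 lower and 3 higher in replicate 3, than in replicate 1, beside 14.7% and 15.9%, and 21.0% and 20.6%, of all genes. The largest fall in replicate 3 was that of *ORC5* of the origin recognition complex at -0.83 ± 0.09 (SE, adjusted p = 2.34e-07). Between replicates 3 and 2, 8 were lower and 2 higher, beside 14.1% and 12.9%.

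Of 12 genes of nucleotide metabolism and chromatin assembly, 2 were higher in gag-pol against control, *CHAF1B* of the chromatin assembly factor at 0.31 ± 0.08 (SE, adjusted p = 0.0168) and *NASP*, a histone chaperone, at 0.22 ± 0.07 (SE, adjusted p = 0.0415), beside 5.48% of all genes. None was called in gag, NC against control or gag-pol against gag, with 1, 6 and 2 at an unadjusted p under 0.05 and 1, 3 and 1 called by DESeq2. Between NC and gag, 1 was higher and 1 lower, the latter *CHAF1A*, the partner of CHAF1B, at -0.28 ± 0.08 (SE, adjusted p = 0.0212). For the pairs, 2 were higher and 1 lower. All genes gave 8.76% and 8.12% in NC against gag and 13.1% and 11.6% for the pairs. Replicate 2 was lower than replicate 1 for 2 of the 12, *TK1* and *ASF1B*, and replicate 3 for 5, with none higher, beside 14.7% and 21.0% of all genes lower, and replicate 3 against replicate 2 gave 3 lower and 3 higher, beside 14.1% and 12.9%. *CHAF1B* changed by -0.66 ± 0.07 (SE, adjusted p = 2.34e-07) in replicate 3 against replicate 1.

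Of 26 controllers of the G1/S transition, 7 were higher and 3 lower in gag-pol against control, beside 5.48% and 5.83% of all genes. *MYC*, a driver of growth, was higher by 0.61 ± 0.16 (SE, adjusted p = 0.0339) and *RB1*, which holds E2F factors, changed by -0.63 ± 0.11 (SE, adjusted p = 0.00196). The joint test among constructs did not call *MYC* (adjusted p = 0.0799) and called *RB1* (adjusted p = 0.00497). In gag, *CDKN1A*, the inhibitor p21, was the one gene called by edgeR, beside 0.699% of all genes called higher by edgeR. It gave 0.55 ± 0.09 (SE, adjusted p = 0.00309). Of the 26, 11 had an unadjusted p under 0.05 and 6 were called by DESeq2, without a share of all genes to set beside them. In NC 2 were higher, *CCND2* and *SKP2*, beside 6.04%. Gag-pol against gag gave 1 higher and 1 lower, NC against gag 1 higher and 7 lower, and the pairs 3 higher and 3 lower, beside 3.03% and 3.42%, 8.76% and 8.12%, and 13.1% and 11.6% of all genes. Between NC and gag, *CDKN1A* changed by -0.40 ± 0.09 (SE, adjusted p = 0.00607). Between passages, 6 of the 26 were higher and 6 lower in replicate 2, and 4 higher and 5 lower in replicate 3, than in replicate 1, and 3 higher and 5 lower between replicates 3 and 2. All genes gave 15.9% and 14.7%, 20.6% and 21.0%, and 12.9% and 14.1% in these contrasts. In replicate 3 against replicate 1, *MYC* changed by -0.99 ± 0.14 (SE, adjusted p = 0.000223) and *CDKN1A* by 0.80 ± 0.08 (SE, adjusted p = 1.48e-07).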

How the data were processed

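The authors deposited a table of raw counts per gene for 12 libraries. Per the labels and the study's methods, poly(A) RNA libraries were made with a Tecan Universal Plus kit, and the submitters' processing notes name STAR 2.7.3, SAMtools 1.8, featureCounts and GRCh38.p13. The annotation release and strand setting are not given in the sources used here, so reads from overlapping genes on opposite strands cannot be told apart. All 12 columns were used, with 0 columns left out.

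The fits used R 4.3.3 with the packages edgeR 4.0.16 and limma 3.58.1. Genes passing edgeR's filter (minimum count 10, minimum total 15, by construct) were kept, TMM factors were applied, and a robust quasi-likelihood model with construct and replicate number was fitted to all 12 libraries (6 residual degrees of freedom). The study's own model held harvest date and construct, and replicate number was used here in place of the date, which is not given per library in the sources used here. The series' design gives 3 passages, and after removal of construct means the correlations ran from 0.14 to 0.54 for the 18 pairs of libraries with the same number and from -0.50 to 0.07 for the 36 pairs with different numbers. P-values measure the spread between these libraries. Benjamini-Hochberg adjustment covered all 17176 genes tested. Standard errors are the log2 fold change divided by the square root of F. To normalize, each library's counts were divided by its total times its TMM factor and rescaled to the mean total of the 12 libraries. Intervals on shares cover counting error only. On simulated data the fit was tested before use.

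Alternatives were DESeq2 1.42.0, upper-quartile or RLE factors, omission of *PEG10*, a filter of 10 counts or more throughout all libraries, no filter, fits that omit the replicate block or the construct term, only the compared libraries, thinning to the smallest library, no robust estimation, and each library and replicate number left out in turn. Removal of a GC and length trend was chosen after seeing the data. For the promoter words, 100 bases and 7-letter words were tried. The members, lists and comparisons were chosen with earlier results of these data known. Values in every library are given for the 2 largest called rises and falls of each comparison and for *E2F1*, *CCNE1*, *CCNE2*, *PCNA* and *MCM2* to *MCM7*, and at most 3 called genes were named per other list and comparison. Values of some genes in these lists are not reported here. Positions and exon lengths are from GENCODE release 44 and promoters from RefSeq, read with pandas 2.3.3 in Python 3.11.15. Figures were drawn with matplotlib 3.10.9.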

Additional observations from a re-analysis of the deposited data

Results flagged for a closer look

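In each group of 4 libraries with one replicate number, the gap between the highest or lowest library and its neighbour was divided by the range of the group. Of 117 groups, 8 had a ratio past Dixon's 95% limit for 4 libraries, where chance gives about 1 in 20. In replicate 1, the ratio was 0.869 for *MCM2* (control highest), 0.912 for *GINS1* (gag-pol highest), 0.906 for *RFC2* (gag-pol lowest) and 0.860 for *POLE2* (gag-pol highest). In replicate 2 it was 0.856 for *POLE* (NC lowest). In replicate 3 it was 0.953 for *MCM3* (gag-pol highest), 0.834 for *RFC5* (NC lowest) and 0.917 for *POLD1* (control highest). The constructs differ within such a group, so a library apart from the rest and a construct apart from the rest cannot be told apart here.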

How the results depend on the processing

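No value changed its sign while called. Of 274 recomputed counts of called replication genes, 214 stayed within 1.5 times the value reported, 222 of 227 medians moved by less than the replicate spread, and 1740 of 2032 values of single genes kept their call. Without the replicate block, 0 replication genes were called in gag-pol against control, NC against control, gag-pol against gag, NC against gag, the pair of gag-pol and NC, and among constructs. Without the construct term, 13 were called in replicate 2 against replicate 1 and 4 in replicate 3 against replicate 2. DESeq2 called 2 in gag against control, 2 in gag-pol against gag and 8 in NC against gag. With only the compared libraries, 6 were called in gag-pol against gag and 1 in NC against gag. In gag-pol against gag, 2 were called without a filter and 2 with the GC and length trend removed, a removal that put the median of replicate 3 against replicate 1 at -0.15.

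With a library or replicate number left out, counts ran from 1 to 9 in gag-pol and 0 to 1 in gag against control, 1 to 6 in NC against control, 0 to 3 in gag-pol against gag, 0 to 7 in NC against gag, 1 to 7 for the pair, 1 to 12 among constructs and 12 to 24 in replicate 2 against replicate 1. Medians ran from -0.031 to 0.037 in gag against control and from -0.025 to 0.042 in gag-pol against gag. The cause of these changes was not tested. Under these omissions, the counts in replicate 3 against replicate 1 (22 to 28), in replicate 3 against replicate 2 (8 to 15) and among replicate numbers (25 to 33) stayed within 1.5 times. The lowest count behind any value was 296.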
